A study of Mus musculus with 16 samples.

Results

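Among the gene models assembled from the captured mouse RNA, some consist of a single exon that begins shortly past the 3′ end of a spliced gene, on the same strand. This report describes 2803 such models, called downstream models here, out of 59206 gene models in the merged assembly (31686 with a single exon and 27520 spliced). A model was taken where its only transcript had 1 exon that started 1 to 5000 nt past the 3′ end of a spliced gene model, with no other model of that strand between them and no overlap with any further one. Of 3656 single exon models within that distance, 853 were left out for a model between or an overlap. Each of the 2803 has its own upstream gene.

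From adult C57BL/6J mice, RNA of 8 tissues was captured with 2 probe designs, one against long noncoding RNA (lncRNA) loci and one against splice junctions, which gives 16 libraries with 1 library per tissue and design. The brain group (n = 4) holds cortex, cerebellum, olfactory bulb and whole brain, and the nonbrain group holds liver, kidney, heart and a tissue labelled testis (n = 4). All animals were of the same strain, with no further genotype or treatment given, and ERCC spike-in RNA of mix 1 or mix 2 was added to every sample. TRIzol served to extract the brain RNA and RNeasy columns the rest, and the capture pools were kept apart in the same way, so that tissue group, extraction and pool cannot be told apart. For each nonbrain organ, RNA from 2 pieces of the same mouse was pooled. The tests treat tissues as replicates of their group, so their p-values measure the spread between tissues, not between mice, and whole brain contains the other brain tissues.

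A gene normally ends where the nascent RNA is cut and a poly(A) tail is added, usually a short way past the hexamer AAUAAA or a close variant. The polymerase continues past that site before it is released, and unspliced RNA made there is known as readthrough. Many genes also hold several cleavage sites, and neurons are known for using distant ones, which gives messenger RNAs with long 3′ untranslated regions (3′ UTRs). Both kinds of RNA can give fragments past an annotated gene end. Where probes or reads leave a gap, an assembler may print them as a separate single exon model.

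The values are the authors' normalized fragments, added up per gene model. Dividing by the value of 1 fragment in each library gave whole fragments for 100% of the low sums (to within 0.1 of a step). With spike-ins included, the lncRNA libraries held 8930243 to 21113092 fragments, and the splice junction libraries 14309235 to 43889289. The share of downstream models in these sums was 1.21% to 2.58% in the lncRNA libraries and 0.0428% to 0.292% in the splice junction libraries. Without spike-ins it was 2.22% to 3.77% and 0.0504% to 0.331%. The spike-in load was uneven: in the lncRNA design, the share went from 1.21% to 2.22% in liver and from 2.15% to 2.36% in olfactory bulb. Markers of neurons, heart muscle, kidney and liver were highest in the libraries of those tissues, with a single exception among heart muscle genes. In the libraries labelled testis, markers did not match the label. None of the 5 germ cell markers with 10 or more fragments in any splice junction library was highest there, whereas 5 of 6 keratinocyte markers were. They are called the libraries labelled testis throughout.

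Most downstream models were short, close to the gene and thinly covered. Their median length was 540 nt (interquartile range 374 to 906, 60 to 11496 in all), against 633 nt for the other single exon models. The median gap to the upstream gene was 879 nt (266 to 2250.5). Of the 2803 models, 291 started within 100 nt, 766 between 101 and 500 nt, 421 between 501 and 1000 nt, 515 between 1001 and 2000 nt and 810 between 2001 and 5000 nt. The model just inside the limit lay 4997 nt from its gene, and the nearest single exon model outside it 5008 nt. The upstream model overlapped a protein-coding gene for 2284 of them.

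Averaged over the 8 lncRNA libraries, 759 downstream models reached a value of 10 (27.1%, against 48.6% of all gene models), and over the splice junction libraries 563 did (20.1%, against 29.1%). The sets barely overlapped: 67 models passed in both designs and 1255 in either. A further 273 were at 0 in all 16 libraries, and the median was 99 fragments over the 16 libraries together. Tests and ties therefore cover only the minority of downstream models that were captured or abundant.

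Comparison with GENCODE M21, on the same GRCm38 build, asked which downstream models later annotation had joined to the upstream gene. A single M21 exon ran from the end of the upstream model into the downstream model in 364 cases (12.99%, 95% Wilson interval 11.8% to 14.3%). An M21 exon covered at least 50% of the downstream model in 330 of these, and 285 overlapped annotated UTRs. A further 41 (1.46%) overlapped a different exon of the upstream gene. Another gene overlapped 492 (17.6%), most often a processed pseudogene (158), a protein-coding gene (77), a gene of the unclassified TEC type (67) or a microRNA gene (41). The remaining 1906 (68.0%, 66.2% to 69.7%) overlapped no M21 exon on their strand.

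The annotated continuations lay close to the gene. The share joined by 1 exon was 17.5% within 100 nt (interval 13.6% to 22.3%), 19.5% between 101 and 500 nt and 17.3% between 501 and 1000 nt. It was 10.87% between 1001 and 2000 nt and 4.32% (3.12% to 5.95%) between 2001 and 5000 nt. The share with another gene moved the other way, from 2.41% to 33.5%. The joined models in the farthest bin had a median length of 1326 nt and a median value of 211 in the lncRNA design.

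The sequence just before the gene end was read where a single M21 exon held it, since no genome sequence was used. A window of the last 50 nt was searched for AATAAA or ATTAAA on the strand of the model. For the upstream models of the 364 joined downstream models, 98.4% had a sequence, and 26.8% (interval 22.5% to 31.6%) held such a hexamer, against 61.1% (60.4% to 61.7%) of the other spliced models, of which 81.7% had a sequence. The Wilson intervals do not overlap, and cover counting error only. The 364 were chosen because an M21 exon runs on past the end of the upstream model, and the other spliced models were not. The lower share cannot be told apart from that choice. Over all upstream models (75.4% with a sequence) and over the downstream models themselves (29.7%) the check is void, because fewer than 80% have a sequence.

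The following ends are printed as DNA, 5′ to 3′, with the hexamer in capitals and 12 bases on either side of it. Only ends with a hexamer in the searched window were eligible, so they do not show how often such ends hold one. The first is the end of the downstream model itself past Fsd2 (chr7:81530311-81530340, minus strand), a model selected by level that had a hexamer and a sequence. The others are ends of upstream genes whose hexamer lies 12 to 22 nt before the end, at chr4:43496147-43496176 (minus, Arhgef39), chr6:7872009-7872038 (plus, C1galt1), chr10:33996565-33996594 (minus, Rwdd1), chr8:72257349-72257378 (plus, Ap1m1), chr12:113153848-113153877 (plus, Crip1), chr8:70758642-70758671 (plus, Rab3a) and chr11:77979011-77979040 (plus, Sez6). That of Wdr37, 44 nt before the end, is not printed.
Fsd2 downstream model: ttgtgcacatgaAATAAAatatttctgaag
Arhgef39 end: ccactggatcttAATAAAgggttgtttttg
C1galt1 end: ttgtaggtaacaATTAAAtttaatgctgtt
Rwdd1 end: atcattgaacttAATAAActgcccataaaa
Ap1m1 end: tgtgacagttatATTAAAatccatttgtta
Crip1 end: ctcagtgcctttAATAAAcctgatctttgg
Rab3a end: gcagtccttgacATTAAAgagaatttaatg
Sez6 end: tgttgtttccttATTAAAatggtgttttgg

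The central question was whether a downstream model follows its gene over the tissues. On the log2(value + 1) scale, the median Pearson's r over the 8 tissues between downstream model and upstream gene was 0.73 in the lncRNA design (interquartile range 0.24 to 0.92, 650 pairs with both models past the filter), 0.62 in the splice junction design (539 pairs) and 0.75 with crossed designs, where the downstream model was read in lncRNA libraries and the gene in splice junction libraries (594 pairs). Spearman's rho had medians of 0.67, 0.55 and 0.69. The crossed value shares tissue and RNA but no library. Of the crossed pairs, 267 (44.9%) had an r of at least 0.8 and 74 (12.5%) one below 0. These are descriptions over 8 tissues that fall into a brain and a nonbrain group, so a pair that differs between the groups has a high r.

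Other neighbours were less alike. With crossed designs, the median r of a downstream model with the next spliced gene farther downstream on its strand (within 100000 nt) was 0.15 (364 pairs), where the same models had 0.73 with the gene upstream (421 pairs). Single exon models that end 1 to 5000 nt before a spliced gene, with the downstream models left out, had 0.41 with that gene (158 pairs). Single exon models on the opposite strand past a gene had 0.29 (261 pairs). All same-strand neighbours, at any distance, had 0.14 (18342 pairs).

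**Figure D1:**
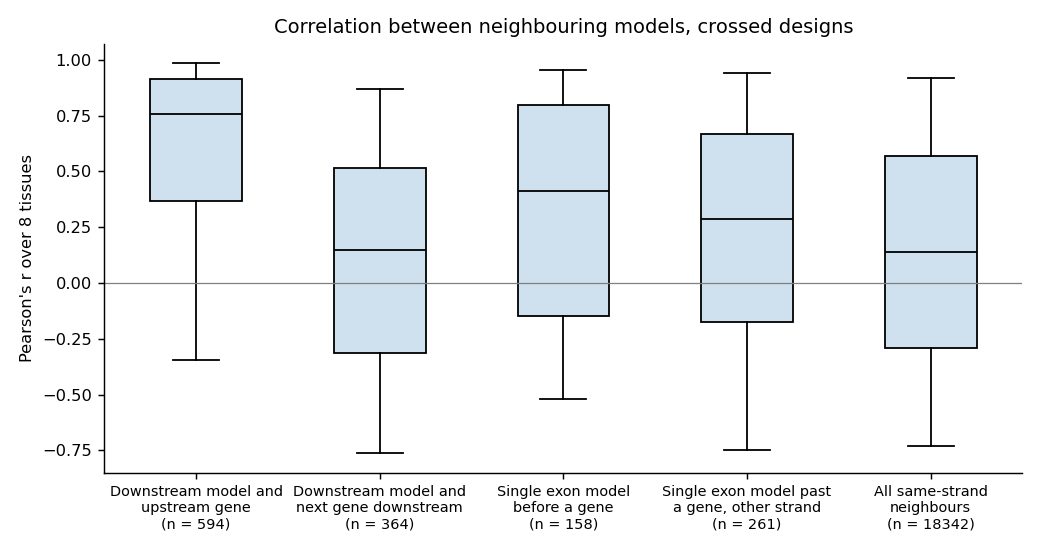
Pearson's r over 8 tissues (vertical axis) between neighbouring models, with the first named model read in the lncRNA design and the spliced gene in the splice junction design. Boxes give the median and quartiles and whiskers the 5th and 95th percentiles over pairs. Downstream models and their upstream genes have the highest median, 0.75, and the other kinds of neighbours lie between 0.14 and 0.41.

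The tie weakened with distance. In the lncRNA design the median r was 0.89 within 100 nt (58 pairs), 0.82 between 101 and 500 nt (164), 0.78 between 501 and 1000 nt (74), 0.73 between 1001 and 2000 nt (105) and 0.54 between 2001 and 5000 nt (249). The order was less regular in the splice junction design, with 0.64, 0.69, 0.48, 0.62 and 0.43. Models that M21 joins to the gene, by the same or another exon, had a median r of 0.86 (121 pairs), and those without an M21 gene 0.70 (452 pairs). The quartiles of all bins overlap.

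**Figure D2:**
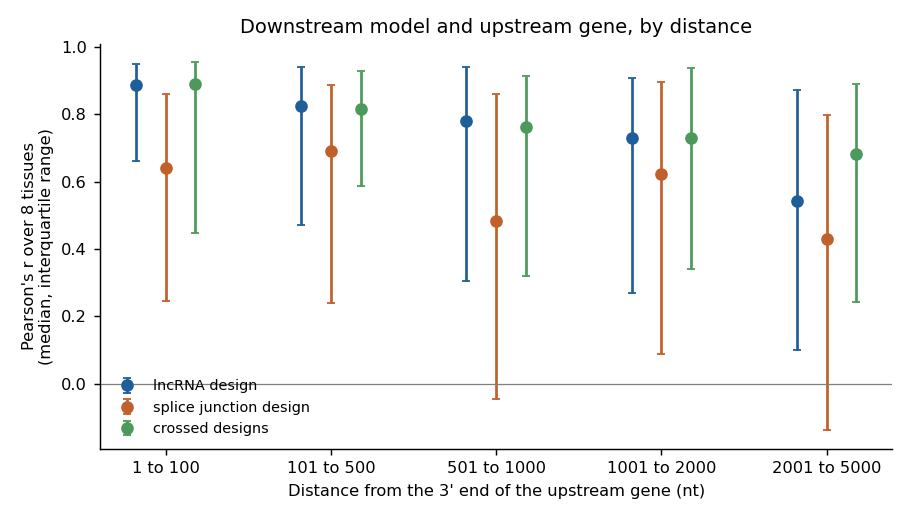
Median Pearson's r over 8 tissues (points) with the interquartile range over pairs (bars) between downstream models and their upstream genes, by distance in nt (horizontal axis) and by the libraries used. In the lncRNA design the median goes from 0.89 in the nearest bin to 0.54 in the farthest, and the bars of neighbouring bins overlap.

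Levels per kilobase were compared with the upstream gene within a design, among pairs with both models past the filter. In the lncRNA design, the downstream model had a median of 157% of the level per kilobase of its gene on mean values over tissues (interquartile range 39.97% to 921%, 650 pairs), and 382 of the 650 lay above the gene. In the splice junction design the median was 37.0% (11.98% to 125%, 539 pairs), and 158 of 539 lay above. Probes cover the models unequally, so the ratio describes captured libraries. In the lncRNA design its medians from the nearest distance bin to the farthest were 113%, 83.0%, 175%, 233% and 372%, higher past 500 nt than before. The splice junction design had no such order, with medians of 38.0%, 36.4%, 27.5%, 42.0% and 45.1%.

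The ratio differed between libraries of the same design. In the splice junction design its median was 71.0% in olfactory bulb, 68.5% in cerebellum and 45.5% in cortex, but 24.7% in whole brain, 25.5% in heart, 24.5% in kidney, 17.99% in liver and 30.3% in the library labelled testis. In the lncRNA design olfactory bulb (311%) and cerebellum (245%) were again highest, with 135% to 189% in the other tissues. Both groups overlap in this ratio in the lncRNA design, since whole brain (142%) lay below heart (189%). Other single exon models took 43.4% of the nonspike value in olfactory bulb, 40.01% in cerebellum and 32.5% in cortex, against 17.4% to 23.0% in the other lncRNA libraries. That share in splice junction libraries was 1.44% in olfactory bulb, 1.37% in heart and 1.21% in cerebellum, against 0.408% to 1.03% in the others. Its part in the differences was not tested.

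**Figure D3:**
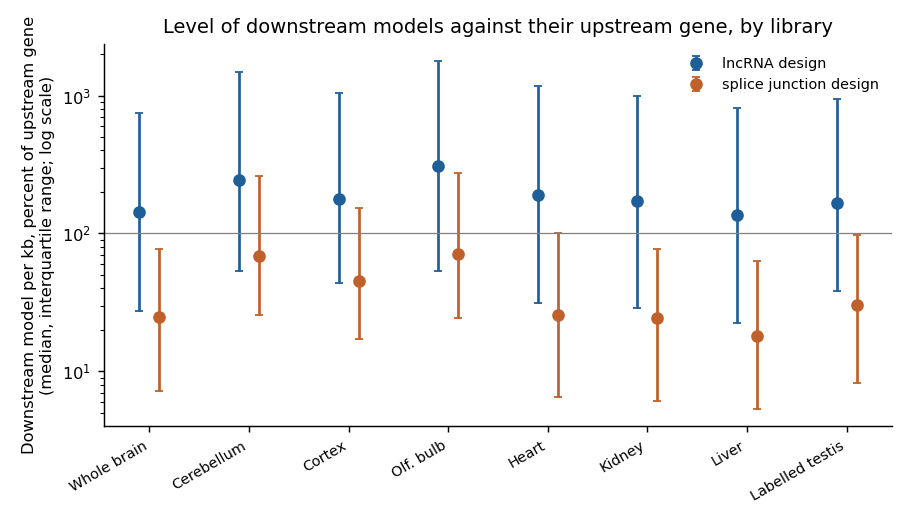
Level of the downstream models per kilobase as a percentage of that of their upstream gene (vertical axis, log scale), by library. Points are medians over pairs and bars the interquartile range, with 1 library per tissue and design. Olfactory bulb and cerebellum have the highest medians in both designs.

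Brain and nonbrain tissues were compared with limma on log2(value + 1) in the lncRNA libraries (n = 4 against 4) over 28798 gene models past the filter. Of all these models, 21.9% were higher and 5.25% lower in brain at a Benjamini-Hochberg adjusted p under 0.05. Among the 759 downstream models tested, 219 (28.9%) were higher and 36 (4.74%) lower, with a median log2 difference of 0.82 against 0.49 over all models. The upstream genes of these models were tested in the splice junction libraries. Of the 219 models higher in brain, 167 had an upstream gene tested in the splice junction design, of which 124 were higher in brain and 0 lower (136 and 2 at an unadjusted p under 0.05, limma). Of the 36 models lower in brain, 24 had such a gene, of which 20 were lower and 0 higher (21 and 0 unadjusted). Of the 504 models not past the threshold, 403 had such a gene, of which 34 were higher and 52 lower. Over all models of the splice junction design, 21.6% were higher and 15.9% lower.

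The balance of directions rests on the scaling. After quantile normalization, 136 downstream models were higher (17.9%, against 15.5% of all models) and 99 lower (13.04%, against 16.1%), the median of all models moved from 0.49 to -0.43, and that of the downstream models from 0.82 to -0.17, which is higher than the median of all models in both cases. Without cerebellum and olfactory bulb, which leaves 2 brain tissues, 120 of 730 were higher (16.4%, against 13.3% of all models) and 11 lower (1.51%, against 1.46%). In these bulk libraries, fewer cells of a type and less RNA per cell cannot be told apart.

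**Figure D4:**
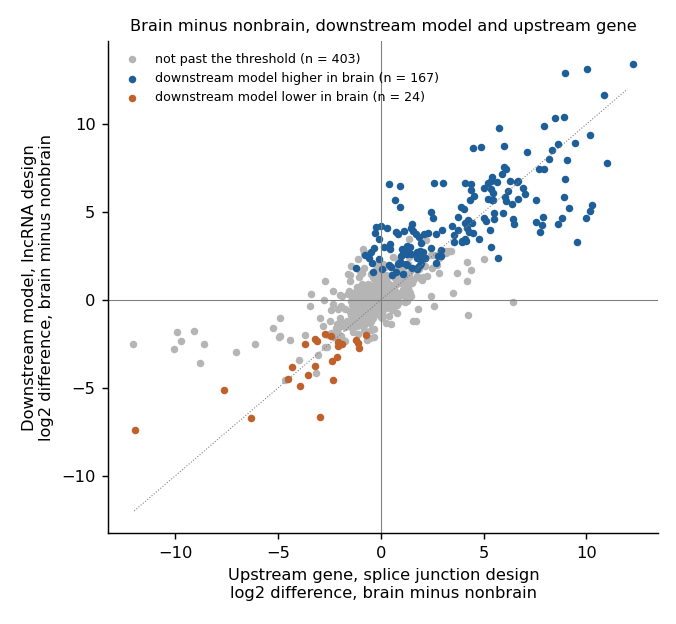
Log2 difference between brain and nonbrain tissues (n = 4 each) of downstream models in the lncRNA design (vertical axis) against that of their upstream genes in the splice junction design (horizontal axis). Each point is a pair, and the dotted line marks equal differences. Of the 167 models higher in brain and the 24 lower, 124 and 20 have an upstream gene that passes the threshold in the same direction.

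The 8 largest differences in favour of brain were those of models past Grin2a, Kcnj6, Jakmip2, Brinp1, Kcnk9, Usp29, St8sia3 and Trpc5. The model past Grin2a, which encodes the glutamate receptor subunit GluN2A, had the second highest mean among the models eligible for naming (chr16:9567735-9571719, minus strand, 3985 nt, 298 nt past the gene, joined to its 3′ UTR in M21). Its values in the lncRNA design were 86238 in whole brain, 21107 in cerebellum, 105359 in cortex and 31737 in olfactory bulb, against 119 in heart, 0 in kidney, 0 in liver and 2.28 in the library labelled testis. The groups do not overlap, cortex was highest, and the log2 difference was 13.44 (SE 1.45, adjusted p = 0.00015 from limma). The gene itself had 13941, 3156, 17190 and 5035 in the brain tissues and at most 28.6 elsewhere, in the same order of tissues.

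Past Kcnj6, an inwardly rectifying potassium channel of neurons, a model of 3519 nt starts after 701 nt (chr16:94745047-94748565, minus strand) and overlaps no M21 gene. It had values of 11959 in whole brain, 5231 in cerebellum, 13245 in cortex and 7806 in olfactory bulb, and no fragment in any nonbrain library of either design. Against a floor of 3 fragments per library, its mean in brain was at least 1253-fold higher (log2 difference as fitted 13.13, SE 0.49, adjusted p = 3.7e-06 from limma). The gene had 1021, 1108, 1299 and 832 in the same tissues of the splice junction design, and 0 in the nonbrain libraries. In the tissues that express the gene the order of levels thus differed: cerebellum was lowest for the downstream model and second for the gene.

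The model past Brinp1, a gene of the nervous system named for its induction by BMP and retinoic acid, lies 3255 nt away and also has no M21 gene (chr4:68753714-68758259, minus strand, 4546 nt). It had values of 3724, 5855, 4878 and 5911 in whole brain, cerebellum, cortex and olfactory bulb. It had 2 fragments in all nonbrain lncRNA libraries together, which is a ratio of 7199 (95% counting interval 1993 to 59442). Cortex and whole brain were highest for the gene in splice junction libraries (3666 and 2447), whereas olfactory bulb and cerebellum were highest for the model.

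Among the others, Kcnk9 encodes a potassium leak channel, and its downstream model, 4108 nt away and joined to the gene by an M21 exon, had values of 1149 to 2264 in brain and 0 in the nonbrain libraries, at least 214-fold higher in brain. Usp29 is an imprinted gene of the Peg3 region, and its model had 689 to 3074 in brain and 0 elsewhere, at least 211-fold higher. The cation channel gene Trpc5 has a model 1874 nt away, without an M21 gene, with 1805 to 7306 in brain and 135 in kidney, and 0 in the other nonbrain libraries (log2 difference 9.92, SE 1.52, adjusted p = 0.0011 from limma). St8sia3, a sialyltransferase gene, and Jakmip2 had models with 1360 to 2857 and 10152 to 14697 in brain, and 3 and 2 fragments in the nonbrain libraries together. In M21 the St8sia3 model is joined to its gene, and the Jakmip2 model overlaps another gene, the long noncoding RNA AC156546.1. The ratios of these 2 models were 1205 (95% counting interval 412 to 5844) and 16884 (4674 to 139417). Without liver St8sia3 was at least 306-fold higher, and without kidney the ratios of Jakmip2 and Brinp1 were 31440 and 13405. Within the lncRNA design, the r of these 8 models with their genes lay between 0.958 and 0.999. They were picked for their brain differences in the same libraries, so any gene that also differs between the groups gives a high r.

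**Figure D5:**
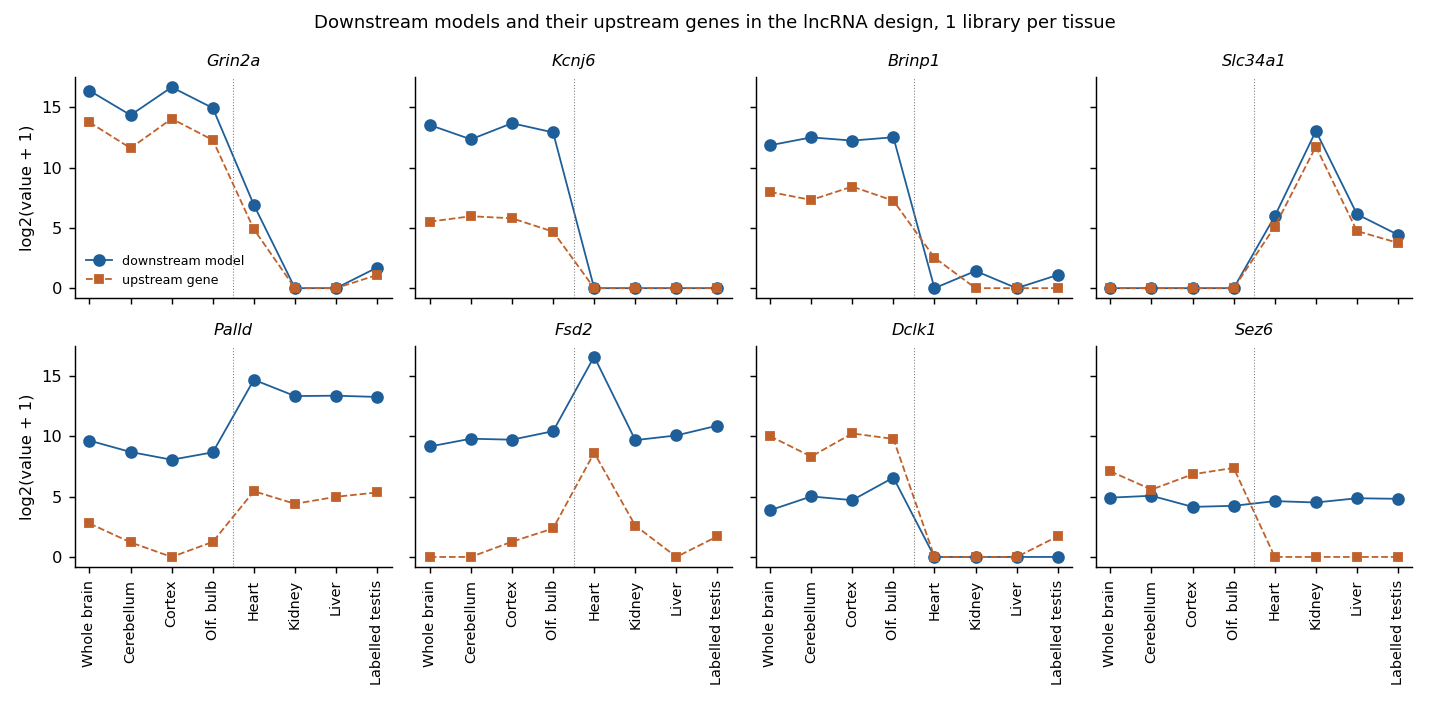
Values on the log2(value + 1) scale (vertical axis) of 8 downstream models (blue circles) and their upstream genes (orange squares) in the 8 tissues of the lncRNA design, with 1 library per tissue and the brain tissues left of the dotted line. The models past Grin2a, Kcnj6, Brinp1 and Dclk1 are high in brain and those past Slc34a1, Palld and Fsd2 highest in kidney or heart, as their genes are. The model past Sez6 stays between 16.8 and 32.8 in all tissues while its gene is at 0 outside brain.

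The 8 largest differences in the other direction were those of models past Slc34a1, Kcnj15, F12, Palld, Crip1, Ppara, BB123696 and Rnf125. The model past Slc34a1, the sodium-phosphate cotransporter of the kidney's proximal tubule, had a value of 8468 in kidney, 62.0 in heart, 69.5 in liver and 20.5 in the library labelled testis, and no fragment in brain (at least 475-fold lower in brain, log2 difference as fitted -7.40, SE 1.60, adjusted p = 0.0074 from limma). Without kidney it was at least 11.2-fold lower, and with a pseudocount of 10 or without cerebellum and olfactory bulb the difference did not pass. It lies 373 nt past the gene (chr13:55415068-55415545, plus strand, 478 nt) and overlaps a part that M21 annotates as UTR. The gene followed with 3456 in kidney and 12.5 to 33.4 in the other nonbrain tissues. On the opposite strand, the model past the coagulation factor gene F12 (chr13:55414753-55415166) overlaps both this model and the M21 gene Pfn3. It had 5717 in kidney and 27.4 to 66.8 in the other nonbrain libraries, whereas F12 was highest in liver (867 in the lncRNA design). Its difference from brain (-5.10, SE 1.53, adjusted p = 0.035 from limma) did not pass in 7 of 16 alternatives, among them those without any 1 of the 4 brain tissues. The library kit keeps the strand, but the setting used for counting is not given in the sources used here, so fragments of both strands cannot be told apart with certainty.

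Past Kcnj15, another inwardly rectifying potassium channel, the model (1662 nt, 88 nt past the gene, no M21 gene) had a value of 2688 in kidney, 145 in the library labelled testis, 38.2 in heart and 28.3 in liver, and 2 fragments in brain, a ratio of 1049 (95% counting interval 290.5 to 8664, adjusted p = 0.0046 from limma). The ratio was 102 (28.2 to 841) without kidney, and without olfactory bulb the model was at least 155-fold lower. Past Palld, which encodes the actin-binding protein palladin, the model (831 nt, 76 nt away) had 26794 in heart and 9967 to 10703 in the other nonbrain tissues, against 268 to 808 in brain (-4.90, SE 0.57, adjusted p = 0.00023). The model past Rnf125, a ubiquitin ligase gene, reached 41378 in liver, with 681 to 7052 in the other nonbrain tissues and 171 to 507 in brain (-4.24, SE 1.12, adjusted p = 0.020 from limma), a difference that did not pass without cerebellum, cortex or olfactory bulb. Models past Crip1, Ppara and BB123696 were lower at 0 to 6.56 in brain and 11.8 to 200 outside it, where Ppara, the nuclear receptor for fatty acid oxidation, had its highest value in liver for the model (180) as for the gene (149).

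The most abundant downstream models were of mixed kinds. The highest mean in the lncRNA design belonged to a model 3084 nt past Arhgef39 that overlaps Rmrp, the RNA component of the RNase MRP enzyme, with 47650 to 225083 over the 8 tissues and overlapping groups. Its upstream gene had at most 10.1 in the same libraries. A model of 143 nt past Zmat2 overlaps the vault RNA gene Vaultrc5 (3185 to 43650). The model past Rwdd1 overlaps A830082N09Rik and was higher in brain (17802 to 23320 against 932 to 3964), while Rwdd1 had an r of -0.54 with it. Each of these models has a gene of its own in M21.

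The other models among the 10 most abundant lay past Arfgef3, Lmbrd2, Slc16a7, Shc3, Fsd2 and C1galt1, beside that of Grin2a. Fsd2 is expressed in striated muscle, and its downstream model, which overlaps the TEC gene Gm37829, had a value of 101671 in heart and 575 to 1915 in the other tissues. The gene itself had 57615 in heart and 24.9 to 706 elsewhere in the splice junction design. Heart stands apart in both, but the difference between the groups did not pass (log2 difference -2.04, SE 1.38, adjusted p = 0.31 from limma). Shc3, an adaptor protein gene of neurons, has a model of 6944 nt that starts 52 nt past it and overlaps no M21 gene, with 5228 to 54237 in brain and 15.4 to 1073 outside it (6.72, SE 1.27, adjusted p = 0.0037).

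Whether downstream model and gene differed between brain and nonbrain by unequal amounts was tested on the log2 difference of both, over 18778 same-strand pairs of a model and its nearest upstream gene. Of all pairs, 13.8% had a difference that was higher in brain and 12.4% one that was lower. Of the 650 pairs of a downstream model, 59 (9.08%) were higher and 18 (2.77%) lower. Their median was 0.39, and that of all pairs 0.23. Among the 111 models joined to their gene by 1 exon, 4 were higher and 4 lower (median 0.02), and among the 452 without an M21 gene 46 were higher and 13 lower (median 0.53). The numbers depend on the setting. Without a filter on low values, 107 of 1676 were higher (6.38%, against 11.7% of all pairs) and 109 lower (6.50%, against 11.8%). In the following settings more stayed higher than lower, but the numbers changed. Without cerebellum and olfactory bulb, 13 of 620 were higher (2.10%, against 5.88% of all pairs) and 6 lower (0.968%, against 7.08%). With splice junction libraries, 124 of 539 were higher (23.0%, against 22% of all pairs) and 10 lower (1.86%, against 19.7%). Leaving out cerebellum, cortex or olfactory bulb alone left 28 (4.37%), 24 (3.76%) and 29 (4.64%) higher, against 10.3%, 8.56% and 9.48% of all pairs. Without whole brain 10 were lower (1.56%, against 9.38%), and without liver 35 were higher (5.45%, against 11.6%).

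Of the 5 largest positive differences, those of Kcnj6 (7.63, SE 0.65) and Trpc5 (6.11, SE 1.16) belonged to genes with little signal in the lncRNA design, at most 61.7 and 43.1 in any tissue. With no fragment of Kcnj6 or its model in the nonbrain libraries, the Kcnj6 difference rests on the brain values alone. In the splice junction design, where Kcnj6 reached 1299, its difference reversed to -3.74. That of Trpc5 was -0.13 in the average of both designs and 1.96, not past the threshold, with crossed designs. The model past the keratin gene Krt79 had 95.7 in the library labelled testis, 9.54 in heart and 0 elsewhere. Its gene had 47568 in the library labelled testis, 275 to 564 in the other nonbrain libraries and 0 in brain. With no fragment of either in brain, the fitted difference (7.87, SE 0.90) rests on the nonbrain values alone. Ap1m1, which encodes a clathrin adaptor subunit, and Wdr37 had fragments in all 8 tissues. The model 2851 nt past Ap1m1 had 297 in whole brain, 60.4 in cerebellum, 436 in cortex, 340 in olfactory bulb and 0 to 7.98 outside brain, while the gene had 26.7 to 41.1 in brain and 10.3 to 38.2 outside it. Its groups do not overlap, and those of the gene do (difference 6.07, SE 1.05, adjusted p = 0.0033 from limma). The model 4421 nt past Wdr37 overlaps Gm48327 and had 68.5 to 217 in brain and 0 to 12.5 outside it, where the gene had 571 to 1473 and 568 to 844.

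The largest negative differences lay past the genes Sez6, Map2, Elavl4, Rab3a and Dclk1. The model 2966 nt past Sez6 had 29.4, 32.8, 16.8 and 17.96 in the brain tissues and 23.9, 22.0, 28.3 and 27.4 in heart, kidney, liver and the library labelled testis. It did not move with Sez6, which had 47.3 to 167 in brain and no fragment outside it (difference as fitted -6.85, SE 0.72, adjusted p = 0.0003 from limma). The difference of Map2 did not pass without whole brain or cortex, nor that of Elavl4 with crossed designs (-0.36). Past Rab3a, a GTPase of synaptic vesicles, the model had 39.1 to 52.5 in brain and 2.57 to 28.6 outside it, where the gene went from 104 to 319 down to 0 to 14.3. The models past Map2, Elavl4 and Dclk1 were themselves higher in brain, but low, and that of Dclk1 had 13.7 to 95.3 in brain and 0 elsewhere. In the nonbrain lncRNA libraries, neither Elavl4 nor its model had a fragment, and Dclk1 had 2 with its model at 0. The fitted differences of Elavl4 (-4.72) and Dclk1 (-4.12) thus rest nearly on the brain values alone, and cannot show an unequal change between the groups. The brain values of the Dclk1 model are 7 to 69 fragments, and log2(value + 1) understates the change of models so low.

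The capture designs were compared with tissue as a factor (n = 8 tissues) over 30849 gene models, of which the lncRNA design gave higher values for 61% and lower ones for 33.7%. Of 875 downstream models tested, 610 (69.7%) were higher and 238 (27.2%) lower. The filter used the mean over all 16 libraries, so a model could enter through the design in which it was high alone. Without a filter, 853 of 2530 were higher (33.7%, against 47.4% of all models) and 1126 lower (44.5%, against 30.8%). The largest increases were those of the models past Lmbrd2, Cct4, Nhlrc2 and Kdm5c. The model past Lmbrd2 had 7560 to 30284 in the lncRNA libraries and 1.60 to 11.9 in the splice junction libraries (10.91, SE 0.24, adjusted p = 1.1e-09 from limma), and that of the chaperonin subunit gene Cct4 had 1970 to 10061 and 0 to 6.66. Models past Zfp605, Anapc16, Mtmr2 and Ccdc117 fell most. The one past Anapc16, a subunit of the anaphase-promoting complex, had no fragment in any lncRNA library and 18.3 to 193 in the splice junction libraries, with an r of -0.72 with its gene there.

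Few of these models reached the filter in the other design: 56 of the 610 higher in the lncRNA design and 2 of the 238 lower ones. Both sets were different in form. The 610 higher in the lncRNA design had a median length of 1319.5 nt and a median gap of 1456.5 nt, and the 238 lower ones 674 nt and 436.5 nt. No M21 gene overlapped 70.7% of the former and 82.8% of the latter, and M21 joined 15.7% and 15.5% to the gene upstream. Their median r with the upstream gene, each in its own design, was 0.72 (531 pairs) and 0.65 (233 pairs). Of the 238, 97 were highest in cerebellum and 59 in olfactory bulb, against 3 in whole brain. Cerebellum (138) and olfactory bulb (109) also led among the 610, with 83 in whole brain. Of the 759 downstream models past the filter in the lncRNA design, 21.3% were highest in cerebellum and 17.4% in olfactory bulb. Over all models of that design the shares were 14.2% and 22.9%. Those over all models of the splice junction design are not given here. Relative to its mean over tissues, the median model of the 238 stood at 1.76 in cerebellum, 1.61 in olfactory bulb, 0.98 in cortex and 0.43 to 0.56 in the others.

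Lists of 3′ end factors, of RNA-binding proteins and of genes known for long 3′ ends in neurons were set beside the upstream genes. The shares over all models were 21.9% higher and 5.25% lower for lncRNA probes, and 21.6% and 15.9% for splice junction probes. Of 29 factors of 3′ end cleavage and termination, 28 were tested in the lncRNA design and 0 were higher or lower in brain (5 higher and 0 lower at an unadjusted p under 0.05, limma), and in the splice junction design 3 were higher and 0 lower (6 and 1 unadjusted). Of 16 RNA-binding proteins that act on neuronal 3′ ends, such as the ELAV-like, Nova and Rbfox families, 11 were higher and 0 lower with lncRNA probes (11 and 1 unadjusted). Of the 15 tested with splice junction probes, 9 were higher and 1, Ptbp1, was lower (-2.11, SE 0.45, adjusted p = 0.008 from limma). With lncRNA probes, Elavl3 (10.44, SE 0.90), Elavl4 (9.37, SE 0.61) and Nova2 (4.06, SE 0.64) were among those higher. The broadly expressed Elavl1 did not pass there (1.18, SE 0.57, adjusted p = 0.16 from limma). Of 32 genes known for long or alternative neuronal 3′ ends, 31 were tested, and the lncRNA design had 13 higher and 0 lower (16 and 1 unadjusted). The splice junction design had 18 higher of 31 and 1 lower, Rhoa (-1.19, SE 0.31, adjusted p = 0.019 from limma). Ptbp1 and Rhoa were named after their values were seen.

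Among the genes of these lists, 13 had a downstream model, of which 7 passed the filter in the lncRNA design. The models past Nova1 (52.5 at most outside brain and 362 to 1410 in brain), Elavl4 (6.91 to 67.0 in brain and 0 outside), Map2 (11.7 to 77.4 and 0 to 3.38) and Homer1 (10.5 to 25.3 and 0 to 3.42) were higher in brain, with adjusted p of 0.0038, 0.00079, 0.0046 and 0.0054 from limma. Those past Atp2b1 (adjusted p = 0.052) and Lmbrd2 did not pass, nor did that of the transcription elongation kinase gene Cdk12, which had 438 to 870 in all 8 tissues. Models past Elavl1, Ptbp2 and Impa1 passed the filter in the splice junction design, and those past Pabpn1, Rbfox2 and Gria2 in neither. The model 243 nt past Elavl1 had 115 in cerebellum and 94.7 in olfactory bulb there, and 8.70 to 49.1 in the other tissues, where Elavl1 itself had 19.3 to 65.8.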

How the data were processed

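Libraries of 8 tissues of C57BL/6J mice, captured with both designs, were made with a stranded kit after ribosomal RNA depletion. Per the paper's methods and the submitters' processing notes, the authors aligned reads to GRCm38 with TopHat2, built transcripts with Cufflinks 2.2.1 (guide annotation GENCODE M4), merged all assemblies and ran Cuffnorm 2.2.1 on the result. Deposited signal values are normalized fragments per transcript, scaled by a factor per library. They were summed per gene model, and division by the smallest step of a library gave fragments. Depth was 8930243 to 43889289 fragments per library, spike-ins included. Intervals cover counting error only.

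Groups were taken from the labels. Comparisons used limma 3.58.1 in R 4.3.3 on log2(value + 1) with a mean value of at least 10 (lmFit and eBayes), adjusted over all models or pairs by the Benjamini-Hochberg method, and called at an adjusted p under 0.05. The scale understates changes of low models. Fits were tested on simulated data. Ties, levels per kilobase (union of exons) and overlaps were computed with SciPy 1.17.1, pandas 2.3.3 and NumPy 2.4.6 under Python 3.11.15. GENCODE M21 (GRCm38) gave names, overlaps and sequences. A single deposited model without values was set to 0.

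Named models were the 10 with the highest mean, the 8 largest brain differences and the 5 largest differences from the gene in each direction (past the threshold, groups separate), the 4 largest design differences in each direction, and all past genes of the lists. All but the last needed an upstream model over exactly 1 GENCODE gene with a symbol other than Gm numbers or Rik names. Ends of upstream genes were printed only where they held a hexamer, by a choice made after the values were seen. The downstream models and lists were chosen with earlier results of these data known. Other pseudocounts, filters, scalings, designs and left-out tissues were tried.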

Additional observations from a re-analysis of the deposited data

Results flagged for a closer look

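In 5 of 64 groups of 4 tissues of named downstream models, a single tissue lay far from the others, and chance flags about 1 in 20. Dixon's test at 95% was applied on the log2(value + 1) scale, and the values below are given before that step. In the brain tissues, whole brain had a value of 188478 for the model past Arhgef39, which overlaps Rmrp, with 47650 to 57347 in the others. In the nonbrain tissues, kidney had 135 for the model past Trpc5 with 0 in the others, and 5717 for the model past F12 with 27.4 to 66.8 in the others. Heart had 26794 for the model past Palld with 9967 to 10703 in the others, and was lowest for the model past Cct4, at 1970 with 5713 to 6676 in the others.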

How the results depend on the processing

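For the brain comparison, the median log2 difference of the downstream models was 0.82, against 0.49 over all models. It was 0.63 with a pseudocount of 10 (against 0.37), 0.48 without a filter (against 0.44) and -0.17 after quantile normalization (against -0.43). In the splice junction design it was 0.97 (against 0.13), and in the average of both designs 0.61 (against 0.35). With a filter at 50, 141 of 446 were higher (31.6%, against 22.3% of all models) and 20 lower (4.48%, against 5.95%). After quantile normalization 136 were higher (17.9%, against 15.5%) and 99 lower (13.04%, against 16.1%). For the difference from the gene, 34 of 650 were lower with a pseudocount of 10 (5.23%, against 12.3% of all pairs). Without a filter 107 of 1676 were higher (6.38%, against 11.7%) and 109 lower (6.50%, against 11.8%, median 0.24). With a filter at 50, 23 of 260 were higher (8.85%, against 14.6%) and 1 lower (0.385%, against 12.5%). After quantile normalization the median was 0.28. In the splice junction design 124 of 539 were higher (23.0%, against 22.0%) and 10 lower (1.86%, against 19.7%, median 1.07). In the average of both designs 55 of 824 were lower (6.67%, against 17.1%). The differences of Kcnj6 in the splice junction design (-3.74) and Trpc5 in the average (-0.13) reversed. For the designs, the median (4.26) was 4.95 with a pseudocount of 0.5, 1.93 with one of 10 and 1.75 after quantile normalization. Without a filter it was -0.46 with 1126 of 2530 lower (44.5%, against 30.8% of all models). With a filter at 50 it was 6.97, with 344 of 361 higher (95.3%, against 58.9%) and 13 lower (3.60%, against 37.2%). The causes were not tested.

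Cerebellum and olfactory bulb were left out together by a choice made after seeing the data. In brain, 120 of 730 were then higher (16.4%, against 13.3% of all models) and 11 lower (1.51%, against 1.46%, median 0.49). The difference from the gene gave 13 of 620 higher (2.10%, against 5.88% of all pairs) and 6 lower (0.968%, against 7.08%, median 0.14). In the lncRNA design 157 of 766 were lower (20.5%, against 32.6%, median 4.44). With 1 tissue left out in turn, 148 to 224 were higher in brain (19.7% to 29.5%, against 16.6% to 22.9% of all models). From 18 to 33 were lower (2.39% to 4.35%, against 2.88% to 6.10%), and the median was 0.64 to 1.02. There were 19 lower without cerebellum, 18 without cortex and 21 without olfactory bulb. The difference from the gene gave 24 to 65 higher (3.76% to 10.05%, against 8.56% to 15.6% of all pairs). From 9 to 23 were lower (1.41% to 3.55%, against 8.01% to 13.5%), and the median was 0.29 to 0.62. There were 28 higher and 11 lower without cerebellum, 24 and 9 without cortex, and 29 and 11 without olfactory bulb. Without whole brain 10 were lower, without liver 35 were higher, and without heart the median was 0.54. The designs gave 584 to 615 higher (66.3% to 71.4%, against 59.1% to 61.2% of all models). From 203 to 261 were lower (24.4% to 29.1%, against 33.2% to 33.6%), and the median was 4.06 to 4.35.

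The tie of 0.73 was 0.67 by Spearman's rho, 0.62 in the splice junction design, 0.80 with a filter at 50 and 0.70 to 0.77 with 1 tissue left out. Upstream ends with a hexamer (59.6%, where sequence covers too few) were 57.4% in 40 nt, 62.5% in 100 nt and 45.5% for AATAAA alone. The level against the gene was 157% in the lncRNA and 37.0% in the splice junction design. Among single named models, 512 results kept their direction and side of the threshold under an alternative and 20 no longer passed it. The comparison of designs is paired by tissue. For brain against nonbrain, no paired analysis was possible because the groups hold different tissues. With 1 library per tissue and design, the spread between animals is unknown. Most downstream models had too few fragments to be tested.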
